A study of Mus musculus with 6 samples.

Results

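The 33 genes described here encode the enzymes and transporters of glycolysis (23 genes) and the oxygen-sensing HIF pathway with some of its other target genes (10 genes). They were taken by symbol from a table of 20938 genes, and all 33 were found. RNA was sequenced from RAW264.7, a macrophage-like line of mouse origin that forms osteoclasts, the cells that resorb bone, when induced. All samples had been induced; neither the inducing agent nor the time in culture is stated in the labels. Control cells received the solvent DMSO (n = 3) and treated cells received neobavaisoflavone (NBIF), an isoflavone of Psoralea seeds, at 8 µM (n = 3). Uninduced cells were not analysed here. Values are FPKM, a fragment count divided by transcript length and by sequencing depth, so levels of different genes are set on a per-length scale. The gene lengths the authors used are uncertain, which touches each comparison between genes and each share of a gene among its relatives. The fold of a gene between groups does not depend on its length. The minimum level for testing and the constant added before the logarithm act on FPKM, so their effect does.

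Glycolysis turns glucose into pyruvate in the cytosol. Glucose enters through GLUT transporters, is trapped by hexokinase, committed by phosphofructokinase, split by aldolase and carried through a chain of shared lower enzymes to pyruvate kinase. Lactate dehydrogenase then turns pyruvate into lactate, which leaves through monocarboxylate transporters. The transcription factor subunit HIF1A drives many of these genes when oxygen is low or inflammatory signals are present. In normal oxygen, EGLN prolyl hydroxylases mark it and the VHL ubiquitin ligase has it degraded. Osteoclasts are rich in mitochondria and are also known to raise glycolysis as they form and resorb bone.

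In NBIF samples 9 of the 23 glycolytic genes were lower, 1 was higher and 13 did not pass the test (limma adjusted p under 0.05), while of 9 tested HIF genes 8 did not pass and 0 were lower. The other HIF gene, Adm, was called higher but met the filter on low levels only through its NBIF samples, so its call supports nothing about the group. In limma 2 of the 9, Adm and Vhl, had an unadjusted p under 0.05, against 3308 of all 9936 genes tested. The genes that fell included the glucose transporter gene Slc2a6, the hexokinase gene Hk3, the aldolase genes Aldoa and Aldoc, the mutase gene Pgam1, the enolase genes Eno1 and Eno2 and the pyruvate kinase gene Pkm. The lactate transporter gene Slc16a1 rose. Most of the falls were small: apart from Slc2a6, mean FPKM of the genes called lower fell by 9.37% (Eno1) to 24.0% (Hk3).

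Over all 9936 genes tested, 8.08% were called lower and 10.5% higher, against 39.1% and 4.35% of the glycolytic genes. Of the 9 HIF genes tested, 0% were called lower and 11.1%, which is Adm alone, higher. With so few genes these HIF shares are near those over all genes. The groups did not overlap for 15 of the 23 glycolytic genes (65.2%) and for 2 of 9 HIF genes (22.2%; Adm and Vhl), against a background of 39.0% of genes tested. Adm is no support here either, as it met the filter only through its NBIF samples. The median log2 change was -0.04 over the glycolytic genes, 0.04 over the HIF genes and 0.04 over all genes tested. As the genes were chosen with earlier results of these data known, these shares are a description and no list test was run. The all-gene calls were 1047 higher and 803 lower, and 692 and 1013 after median-ratio scaling. After each sample was rescaled to the same sum, the glycolytic genes called were 2 higher and 7 lower. Without NBIF 1 the number called lower was 5.

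**Figure D1:**
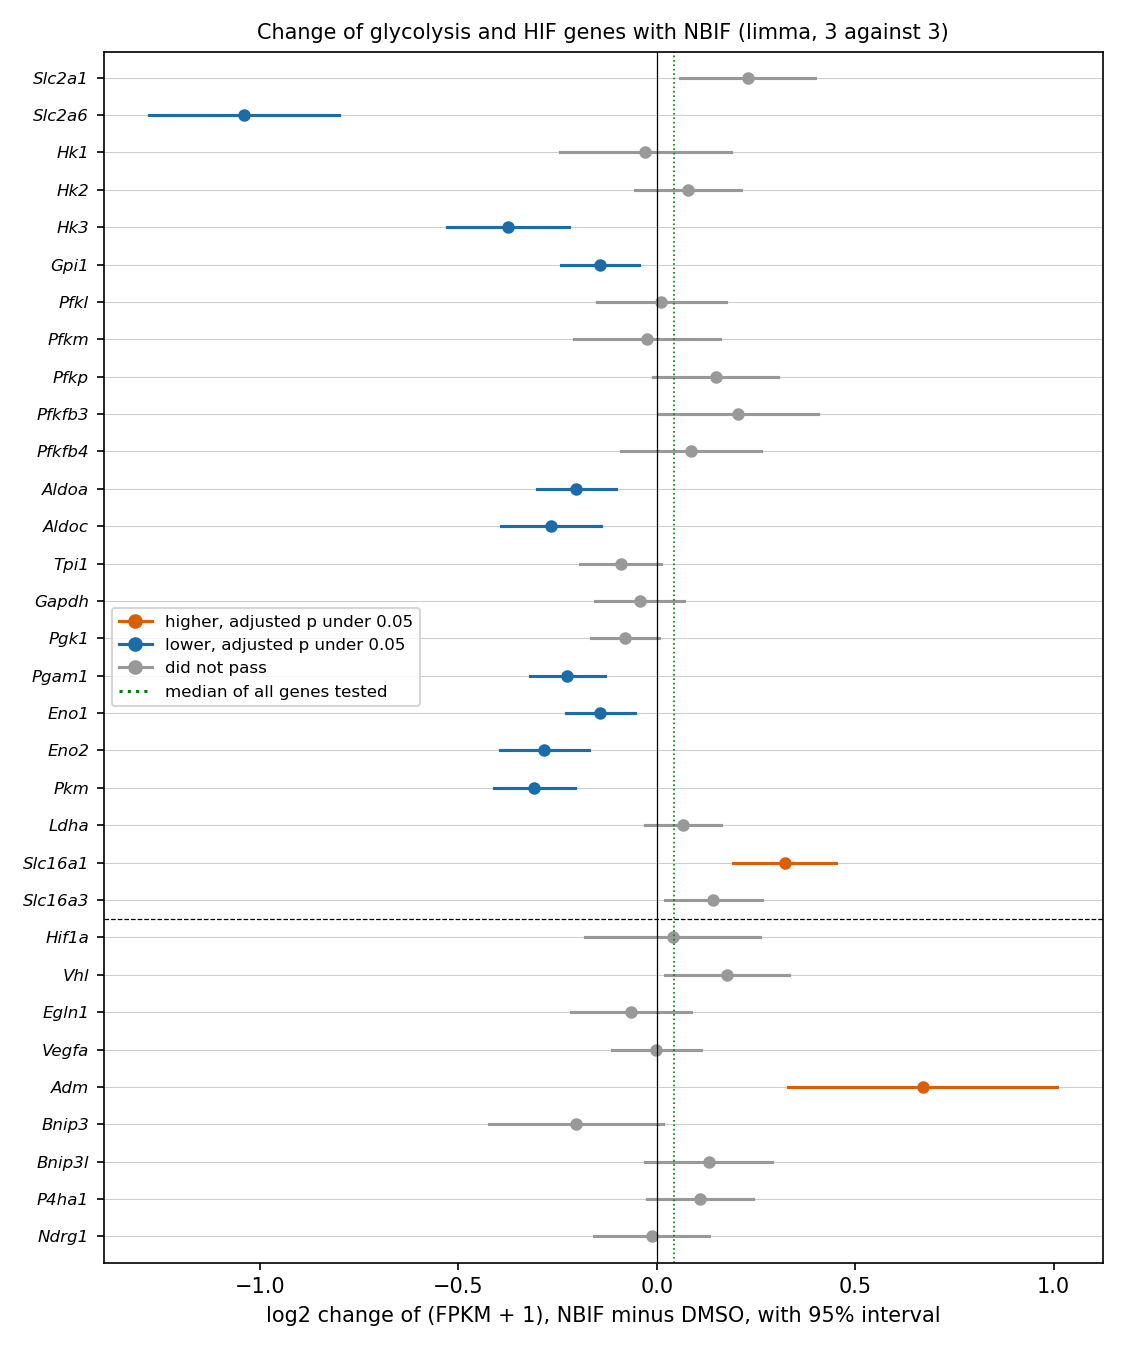
Log2 change of (FPKM + 1), NBIF minus DMSO, for the 32 tested genes in pathway order, with 95% intervals from limma; colours give the call, the dashed line parts glycolytic genes (above) from HIF genes (below) and the dotted line is the median of all genes tested. From Aldoa down to Pkm every point is below 0, with 6 of these 9 genes called lower, while Ldha and the Slc16a genes are above 0; after quantile normalization Gapdh and Pgk1 also lay above 0.

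The samples carried osteoclast and macrophage transcripts. The FPKM of a sample summed to between 484603 and 494172, and the number of reads is unknown. A rough depth, 0.886 to 1.09 times that of DMSO 1, came from genes above 0 and under 0.05 FPKM in the sample and in DMSO 1. It was the most common ratio of these values, to which 45 to 53 of the 305 to 354 genes compared came close. The correlation of log2 values between samples of the same group was 0.993 to 0.996, and across groups 0.986 to 0.989. Whether replicates were separate cultures is not stated, so p-values reflect the spread among these 6 samples alone, and it may be technical. The labels also name bone marrow and macrophages as the source. Of 10 osteoclast markers, 9 were tested, 5 fell and 4 did not pass, and their summed level was 7581 to 8206 FPKM in DMSO and 5795 to 6620 in NBIF. Of 10 macrophage markers, all 8 tested fell, with sums of 2305 to 2476 and 1404 to 1463 FPKM, and Mrc1 and Mertk were near 0 throughout. Over all genes tested, 8.08% fell. Stromal, neutrophil and erythroid markers each summed to under 0.5 FPKM in every sample, and lymphocyte markers were at 0 in all samples but NBIF 2 (0.236). In such bulk samples fewer cells of a type and less RNA per cell cannot be told apart. The part of the macrophage and osteoclast shifts in the results below was not tested.

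The promoters of these genes are shown because many of them are known HIF targets, and HIF binds the core ACGTG or GCGTG of the hypoxia response element. In windows from 250 bases before to 50 bases after the gene start (RefSeq, GRCm38.p6), that core on either strand was found for 27 of the 31 genes with a window, including 20 of 23 glycolytic genes. It was also found for 69.7% of all tested genes with a window and 46.7% of all genes, so most expressed genes hold it. Among the genes called lower 7 of 9 held it, and among those not called 17 of 19. The windows of Gpi1, Tpi1, Eno2 and Vhl held none. The CACGTG palindrome, which other factors such as MYC also bind, was counted on each strand. The stretches below are the 250 bases before a RefSeq transcript start of the gene with the largest fall (Slc2a6, chr2:27027999-27028248, minus strand), of the abundant pyruvate kinase gene that fell (Pkm, chr9:59656977-59657226, plus strand, the window of 2 that holds a match), of the most abundant member (Ldha, chr7:46845554-46845803, plus strand, the first of 2 windows) and of both genes called higher (Slc16a1, chr3:104638414-104638663, and Adm, chr7:110627407-110627656, both plus strand). The stretches of Pkm and Ldha lie inside the GENCODE spans of these genes, which start at 59656368 and 46841475, and so precede an alternative start; the other Pkm window, nearer that start, holds no match. They read 5′ to 3′ on the gene's strand, with matches to the core in capitals.
Slc2a6: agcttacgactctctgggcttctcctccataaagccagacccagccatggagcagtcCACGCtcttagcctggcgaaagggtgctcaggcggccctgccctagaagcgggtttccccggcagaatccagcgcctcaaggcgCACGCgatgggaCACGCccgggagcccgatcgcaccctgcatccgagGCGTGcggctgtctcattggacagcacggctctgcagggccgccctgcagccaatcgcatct
Pkm: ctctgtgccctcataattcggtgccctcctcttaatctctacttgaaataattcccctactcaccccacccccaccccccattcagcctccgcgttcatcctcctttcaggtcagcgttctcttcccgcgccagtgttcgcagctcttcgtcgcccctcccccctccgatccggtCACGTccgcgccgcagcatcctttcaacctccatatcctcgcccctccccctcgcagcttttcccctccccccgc
Ldha: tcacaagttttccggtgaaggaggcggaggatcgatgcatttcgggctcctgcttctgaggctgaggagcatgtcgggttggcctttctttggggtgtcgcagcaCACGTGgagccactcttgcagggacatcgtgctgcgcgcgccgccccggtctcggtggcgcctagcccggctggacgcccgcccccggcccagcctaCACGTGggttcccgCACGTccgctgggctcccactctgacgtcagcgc
Slc16a1: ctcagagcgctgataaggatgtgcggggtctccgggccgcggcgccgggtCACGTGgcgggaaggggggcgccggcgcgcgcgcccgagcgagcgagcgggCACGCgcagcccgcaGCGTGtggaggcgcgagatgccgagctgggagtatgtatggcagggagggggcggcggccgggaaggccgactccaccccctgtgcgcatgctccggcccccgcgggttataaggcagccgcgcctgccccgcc
Adm: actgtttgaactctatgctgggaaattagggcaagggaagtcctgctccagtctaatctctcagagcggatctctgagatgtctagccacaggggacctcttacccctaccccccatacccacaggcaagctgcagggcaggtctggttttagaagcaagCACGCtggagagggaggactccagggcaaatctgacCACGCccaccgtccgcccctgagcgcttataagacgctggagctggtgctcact
The stretch of Slc2a6 has 4 matches, that of Pkm 1, that of Ldha 5, that of Slc16a1 4 and that of Adm 2. The Pkm stretch was printed because it holds a match. A match is a description of letters, not a site of binding.

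Of the glucose transporter genes described here, Slc2a6 fell and Slc2a1 did not pass the test. The difference between these genes was not tested. Slc2a3, Slc2a4 and Slc2a8, relatives outside the genes described here, did not pass either. Slc2a6 encodes GLUT6, a transporter of intracellular membranes that is found in inflammatory macrophages. It had 3.40, 2.94 and 3.59 FPKM in the DMSO samples and 1.05, 1.36 and 0.891 FPKM in the NBIF samples. Every NBIF value was below every DMSO value. The mean FPKM fell by 66.7%, and the log2 change of (FPKM + 1) was -1.04 ± 0.11 (SE; adjusted p = 0.000419 in limma). Because the gene is low, the size depended on the pseudocount, with log2 changes of -1.52 at 0.1 and -0.45 at 5, and the call was kept at both. Slc2a6 lies on chromosome 2 at 27021363 to 27027998 (GRCm38).

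Slc2a1 encodes GLUT1, the main glucose transporter of most proliferating cells. It had 26.0, 27.9 and 30.3 FPKM in DMSO and 33.8, 30.3 and 35.1 FPKM in NBIF. NBIF 2 and DMSO 3 were almost equal, and the other NBIF samples were higher than all DMSO samples. The log2 change was 0.23 ± 0.07 (SE; adjusted p = 0.0655 in limma), which did not pass. The call was gained without DMSO 3 (adjusted p = 0.0344), without NBIF 2 (0.0495) and after rescaling to the same sum (0.0481). Of the summed FPKM of both genes, Slc2a1 made up 89.4 ± 1.02% in DMSO and 96.7 ± 0.936% in NBIF (SD, n = 3), and the groups did not overlap. Such a share does not depend on how a sample is scaled; 3 samples against 3 cannot give an exact two-sided p below 0.1, so shares are given without a test.

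Of the 3 hexokinase genes, whose products trap glucose in the cell, Hk3 fell and Hk1 and Hk2 did not pass; differences between the genes were not tested. Hk3, the hexokinase typical of myeloid cells, had 21.4, 23.3 and 25.2 FPKM in DMSO and 18.1, 17.2 and 17.9 FPKM in NBIF. The NBIF values were tight and all below the lowest DMSO value. The log2 change was -0.37 ± 0.07 (SE; adjusted p = 0.00679 in limma). Hk1, the widely expressed form, ranged from 37.6 to 45.3 FPKM in DMSO and from 35.1 to 43.9 in NBIF. Hk2, the form most often induced by HIF and insulin, ranged from 26.5 to 29.8 and from 28.6 to 30.4 FPKM. The groups overlapped for both genes, with 95% intervals of the log2 change of -0.24 to 0.19 for Hk1 and -0.06 to 0.21 for Hk2. Hk3 made up 25.3 ± 2.12% of the summed FPKM of these 3 genes in DMSO and 20.3 ± 0.503% in NBIF, without overlap. The next enzyme, glucose phosphate isomerase (Gpi1), had 233, 225 and 241 FPKM in DMSO and 213, 211 and 208 in NBIF. These groups did not overlap, but the difference was small and close to the threshold. Its log2 change was -0.14 ± 0.04 (SE; adjusted p = 0.0499 in limma). The gene no longer passed when DMSO 1 (adjusted p = 0.129), DMSO 3 (0.0726), NBIF 1 (0.118), NBIF 2 (0.110) or NBIF 3 (0.157) was left out, nor under 6 of the other alternatives.

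**Figure D2:**
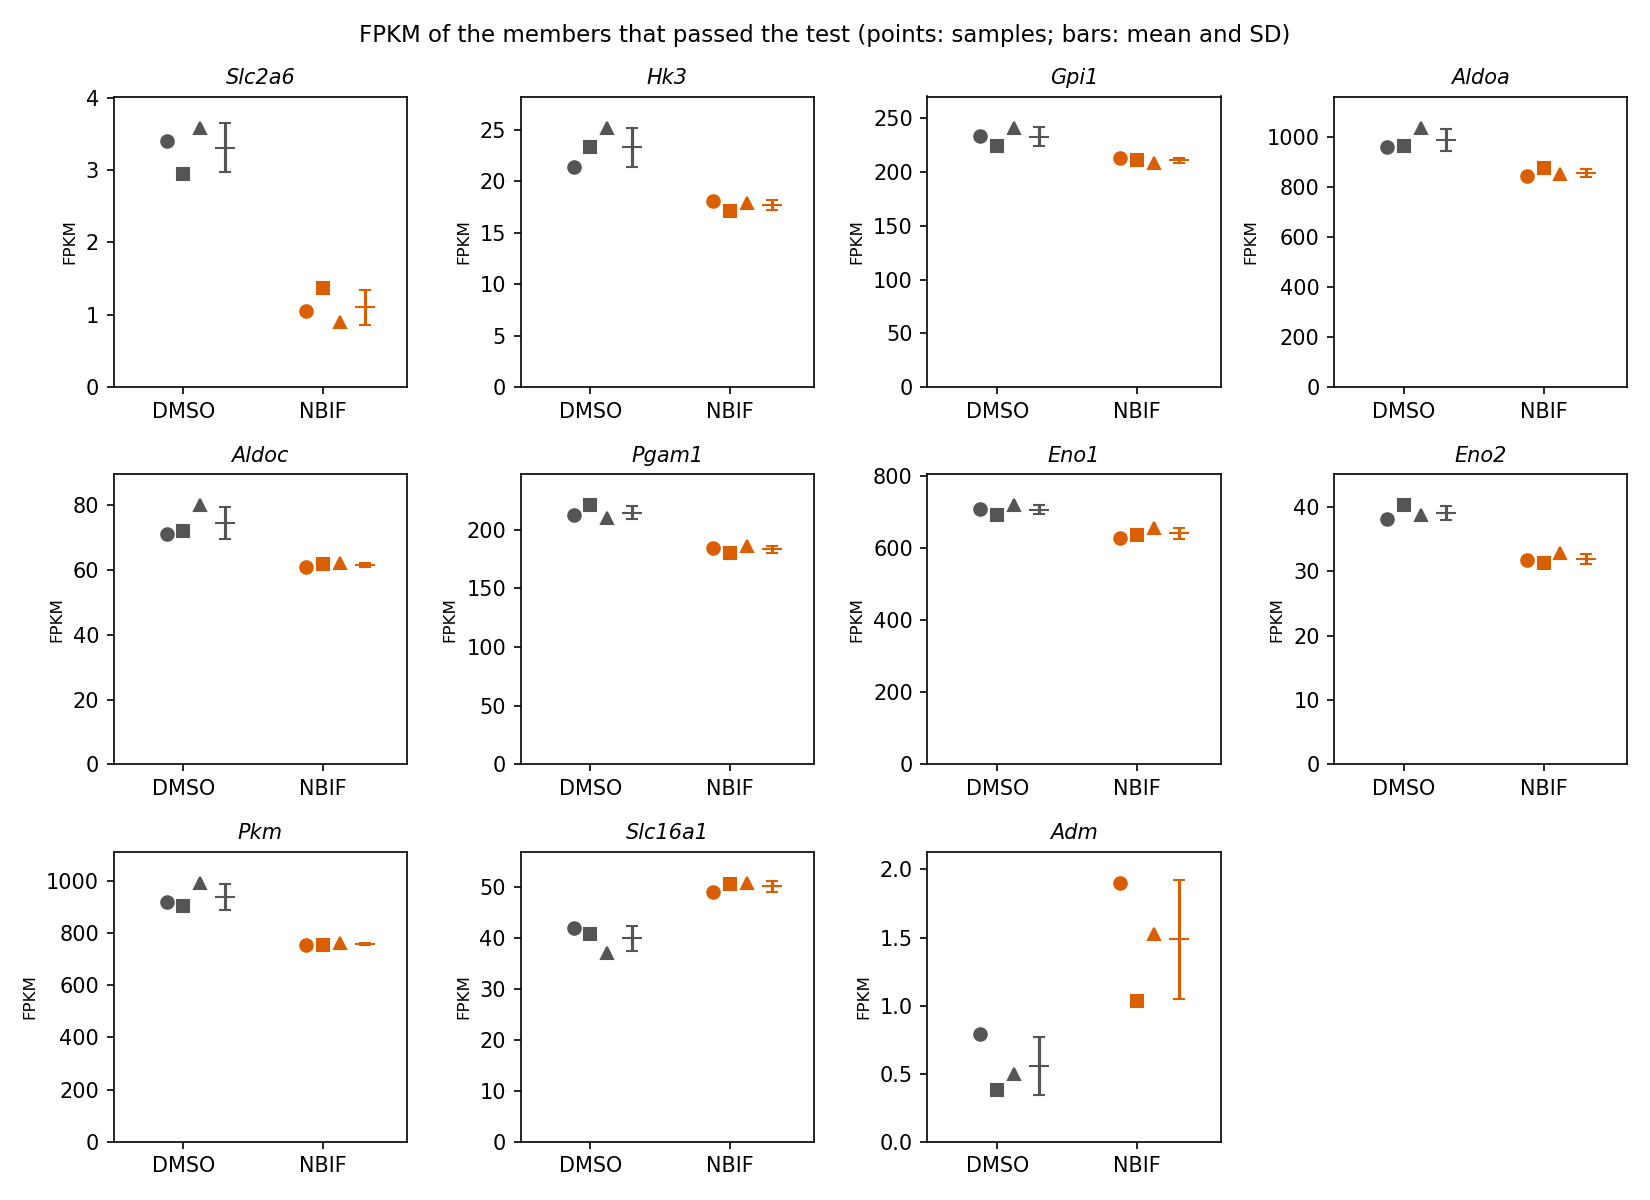
FPKM of the 11 genes that passed the test, on linear axes from 0; symbols are samples (circle, replicate 1; square, 2; triangle, 3) and bars give the mean and SD of 3 samples. Relative to its own level Slc2a6 shows the widest gap between groups of the genes that fell, and in Pkm the NBIF samples lie between 753 and 760.3 FPKM, below the lowest DMSO value of 902.

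None of the 5 genes of the committing step passed the limma test, and 1 of them, Pfkfb3, had an unadjusted p under 0.05. Phosphofructokinase is encoded by Pfkl, Pfkm and Pfkp, of which the platelet-type gene Pfkp was the most abundant, with 134, 140.4 and 123 FPKM in DMSO and 159.7, 143 and 138 in NBIF. Its groups overlapped, because NBIF 3 lay below DMSO 2, and the log2 change was 0.15 ± 0.07 (SE; adjusted p = 0.172 in limma). Pfkl and Pfkm lay between 28.5 and 35.4 FPKM in all 6 samples, with log2 changes of 0.01 and -0.02; that of Pfkl was -0.03 after median-ratio scaling and -0.01 after quantile normalization. Pfkfb3 and Pfkfb4 encode enzymes that set the level of the allosteric activator of phosphofructokinase. Pfkfb3 had 2.71, 3.21 and 3.22 FPKM in DMSO and 3.81, 3.91 and 3.28 in NBIF. The lowest NBIF value was just above the highest DMSO value, and the log2 change was 0.20 ± 0.09 (SE; adjusted p = 0.142 in limma). It was 0.11 with a pseudocount of 5. Pfkfb4 ranged from 5.28 to 6.25 FPKM in DMSO and from 5.95 to 6.62 in NBIF, with a log2 change of 0.09.

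At aldolase, which splits the sugar, both genes fell. Aldoa had 959, 964 and 1037 FPKM in DMSO and 844, 875 and 851 FPKM in NBIF. Its groups were well apart relative to their spread, with a log2 change of -0.20 ± 0.04 (SE; adjusted p = 0.0143 in limma). Aldoc, the brain-type form, had 70.9, 72.0 and 79.9 FPKM in DMSO and 60.9, 61.7 and 62.0 in NBIF. Its groups did not overlap either, and the log2 change was -0.27 ± 0.06 (adjusted p = 0.0127, limma). The Aldoa call was lost without NBIF 1 (adjusted p = 0.0640), without NBIF 3 (0.0571) and after quantile normalization (0.0518), and the Aldoc call without NBIF 1 (0.0529). The share of Aldoa in the pair was 93.0 ± 0.142% in DMSO and 93.3 ± 0.106% in NBIF, a small difference although the groups did not overlap. GENCODE lists a second gene under the symbol Aldoa directly upstream, and the table has 1 value for the symbol.

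Of the 3 genes that follow, Tpi1, Gapdh and Pgk1, none passed the limma test or had an unadjusted p under 0.05. Tpi1, which interconverts the triose phosphates, had 122, 125 and 129 FPKM in DMSO and 114, 120.3 and 118 in NBIF. Gapdh, the dehydrogenase often used as a reference gene, had 1086, 1075 and 1197 FPKM in DMSO and 1064, 1089 and 1101 in NBIF. Pgk1, the first enzyme of the pathway to make ATP, had 797, 806 and 788 FPKM in DMSO and 737, 749 and 776 in NBIF. The groups overlapped for Gapdh and did not for Tpi1 and Pgk1. The 95% intervals of the log2 change were -0.19 to 0.01 for Tpi1, -0.15 to 0.07 for Gapdh and -0.17 to 0.01 for Pgk1. After quantile normalization the log2 change was 0.03 for Gapdh and 0.08 for Pgk1, above 0. Tpi1 and Gapdh lie near Eno2 on chromosome 6 (124810586 to 124814296, 125161715 to 125166467 and 124760053 to 124769673 in GRCm38).

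All 4 genes of the last enzymes before pyruvate fell. Pgam1, the mutase that moves the phosphate, had 213, 221 and 209.9 FPKM in DMSO and 184, 180.2 and 186 FPKM in NBIF. Every NBIF value was well below the DMSO values, and the log2 change was -0.23 ± 0.04 (SE; adjusted p = 0.00725 in limma). Eno1, the main enolase gene, had 707, 692 and 718 FPKM in DMSO and 628, 636 and 655 in NBIF. The groups did not overlap, and the log2 change was -0.14 ± 0.04 (SE; adjusted p = 0.0345 in limma). Eno1 no longer passed when DMSO 1 (adjusted p = 0.104), DMSO 3 (0.0512), NBIF 1 (0.133), NBIF 2 (0.0807) or NBIF 3 (0.0717) was left out, nor under 5 other alternatives. Eno1b, a retrogene close to Eno1 in sequence, had 104 ± 3.58 FPKM in DMSO and 102 ± 2.93 in NBIF (SD, n = 3), and how reads were divided between the pair is not known.

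Eno2, the enolase best known from neurons, had 38.1, 40.3 and 38.8 FPKM in DMSO and 31.8, 31.3 and 32.8 in NBIF. The spread was small in both groups and the log2 change was -0.28 ± 0.05 (SE; adjusted p = 0.00602 in limma). Eno2 made up 5.25 ± 0.220% of the summed FPKM of Eno1 and Eno2 in DMSO and 4.76 ± 0.0657% in NBIF, without overlap. The muscle-type gene Eno3, which is not among the 33, had 51.4 ± 2.45 FPKM in DMSO and 34.1 ± 1.25 in NBIF and fell by 0.58 ± 0.06 on the log2 scale (SE; adjusted p = 0.000306 in limma).

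Pkm encodes pyruvate kinase, and its value adds the M1 and M2 splice forms, which a value per gene cannot separate. It had 917, 902 and 992 FPKM in DMSO and 754, 753 and 760.3 FPKM in NBIF. The NBIF samples were nearly equal and all below the DMSO samples. The mean fell by 19.3%, and the log2 change was -0.31 ± 0.04 (SE; adjusted p = 0.00259 in limma). It lies on chromosome 9 at 59656368 to 59679375 (GRCm38). The calls of Slc2a6, Hk3, Pgam1, Eno2, Pkm and Slc16a1 were kept under every alternative that tested them.

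Of the 3 genes that make and export lactate, Slc16a1 rose, and Ldha and Slc16a3 did not pass. Ldha, which encodes the lactate dehydrogenase subunit that favours lactate, was the most abundant of the 33 genes, at rank 26 of 20938 by mean DMSO level. It had 1705, 1736 and 1827 FPKM in DMSO and 1782, 1889 and 1841 in NBIF. NBIF 1 lay within the DMSO range, and the log2 change was 0.07 ± 0.04 (SE; adjusted p = 0.316 in limma). The lactate transporter gene Slc16a1 (MCT1; chromosome 3, 104638668 to 104658462 in GRCm38) had 41.9, 40.8 and 37.2 FPKM in DMSO and 49.0, 50.7 and 50.9 FPKM in NBIF. All NBIF values were above all DMSO values, and the mean was 1.26-fold that of DMSO, a log2 change of 0.32 ± 0.06 (SE; adjusted p = 0.00626 in limma). Slc16a3 (MCT4), the transporter typical of highly glycolytic cells, had 31.4, 32.5 and 33.2 FPKM in DMSO and 34.1, 37.1 and 36.4 in NBIF. These groups did not overlap, but the log2 change of 0.14 ± 0.05 (SE; adjusted p = 0.0992 in limma) did not pass. Slc16a1 made up 55.2 ± 2.19% of the summed FPKM of the pair in DMSO and 58.3 ± 0.631% in NBIF. These shares leave out relatives that are not among the 33. Pfkfb2 (78.0 FPKM in DMSO), Eno3 (51.4), Slc16a7 (34.0) and Slc2a3 (8.13) matched or exceeded the level of a gene in the shares. So did Eno1b, whose levels are given above, and in NBIF also Slc2a8 (3.06 FPKM, against 1.10 for Slc2a6).

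**Figure D3:**
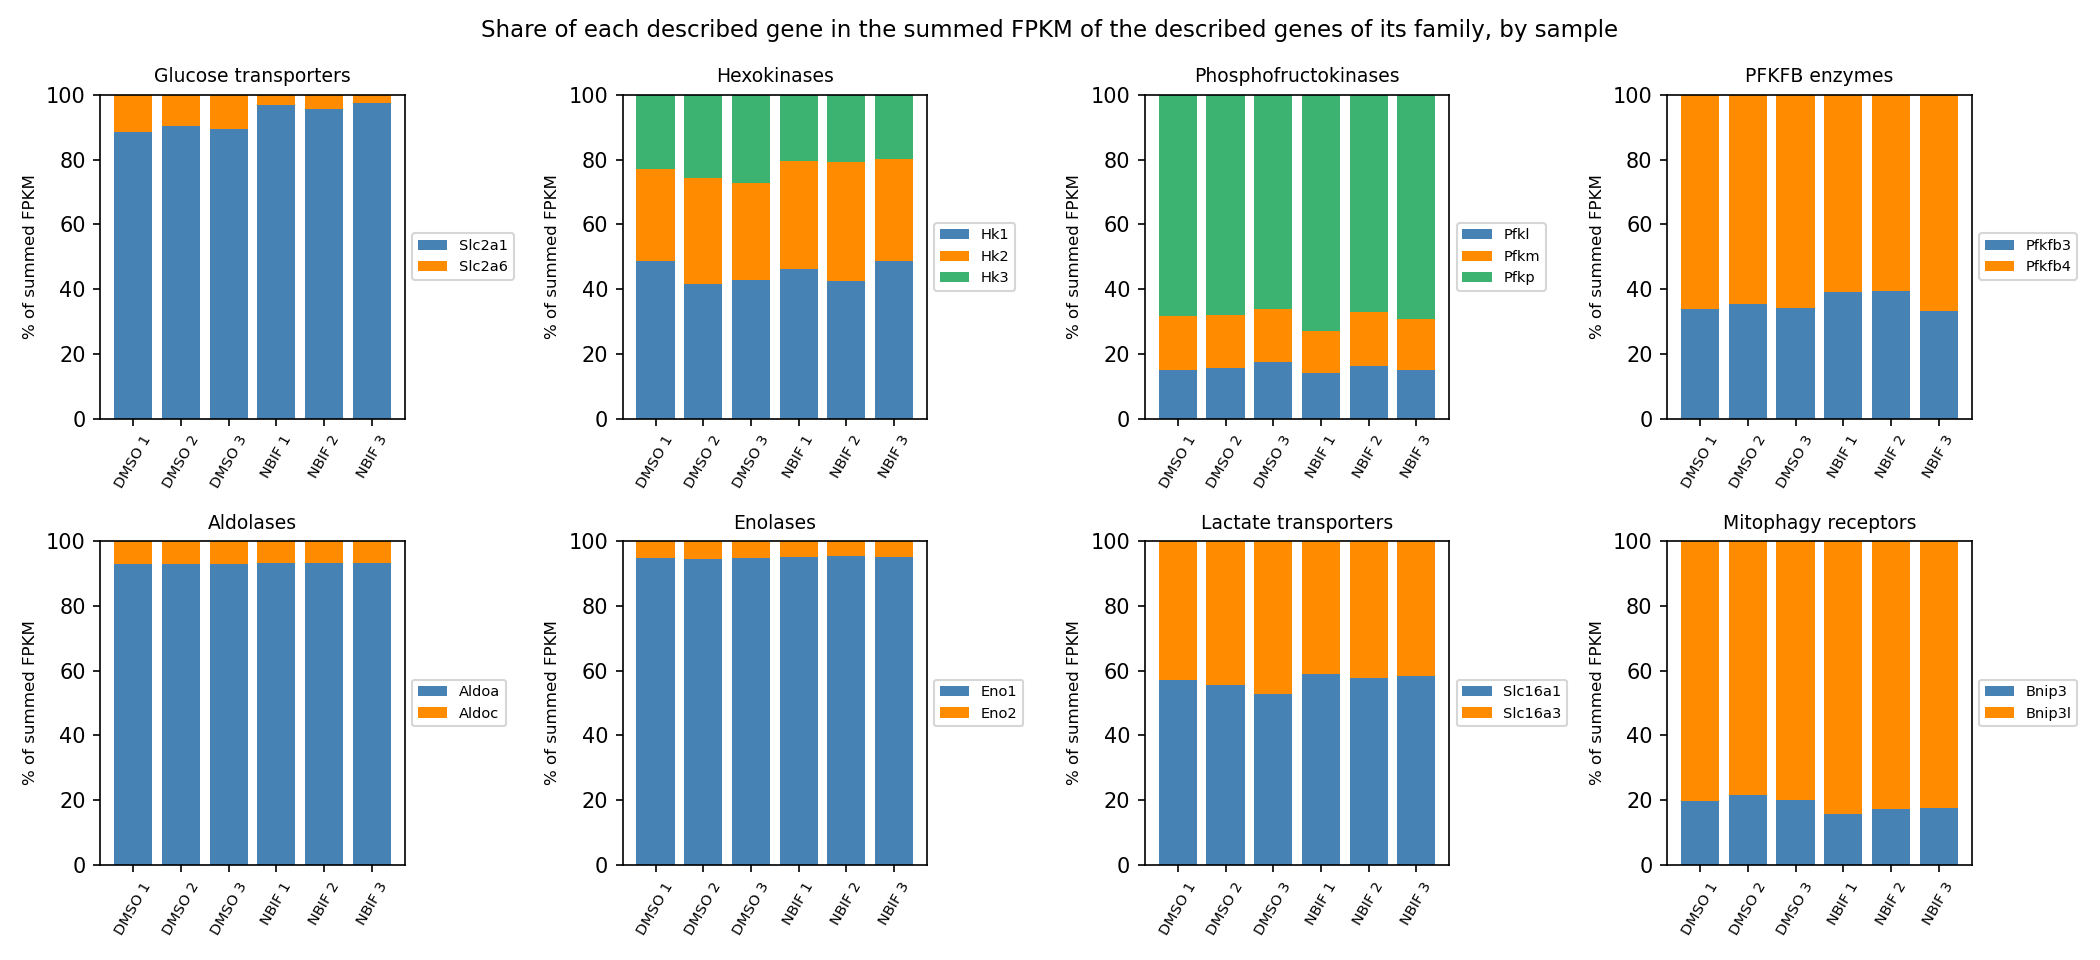
Share of each gene in the summed FPKM of its relatives among the 33 genes (percent, stacked bars from 0 to 100) in each of the 6 samples, for 8 sets. Relatives outside the 33 are left out of the sums. The share of Slc2a6 in its pair was 9.54% to 11.6% in DMSO and 2.48% to 4.30% in NBIF, and the share of Hk3 was at most 20.8% in NBIF against a DMSO mean of 25.3%, while the phosphofructokinase shares overlapped.

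Together the 23 glycolytic genes summed to 7248, 7267 and 7652 FPKM in DMSO and 6851, 7021 and 7015 FPKM in NBIF. That was 1.47%, 1.47% and 1.55% of all FPKM in DMSO and 1.40%, 1.45% and 1.43% in NBIF, with no overlap of the groups. Abundant genes such as Ldha, Gapdh, Aldoa and Pkm weigh most in such a sum. For scale, 10.5% of all genes tested rose and 8.08% fell. The median log2 change of 12 non-glycolytic genes often used as references was -0.02. Of these 12, 1 rose (8.33%), 2 fell (16.7%) and 9 did not pass. With samples left out in turn the numbers were 0 to 3 and 1 to 2, with 3 risen without DMSO 3, 0 without DMSO 1 or any NBIF sample, and 1 fallen without NBIF 1 or NBIF 3. The actin gene Actb had 968 ± 16.2 FPKM in DMSO and 857 ± 8.79 in NBIF and fell by 0.18 ± 0.04 on the log2 scale (SE; adjusted p = 0.0116 in limma), close to that of Aldoa. The Actb call was lost without NBIF 1 (adjusted p = 0.0586) and after quantile normalization (0.164).

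**Figure D4:**
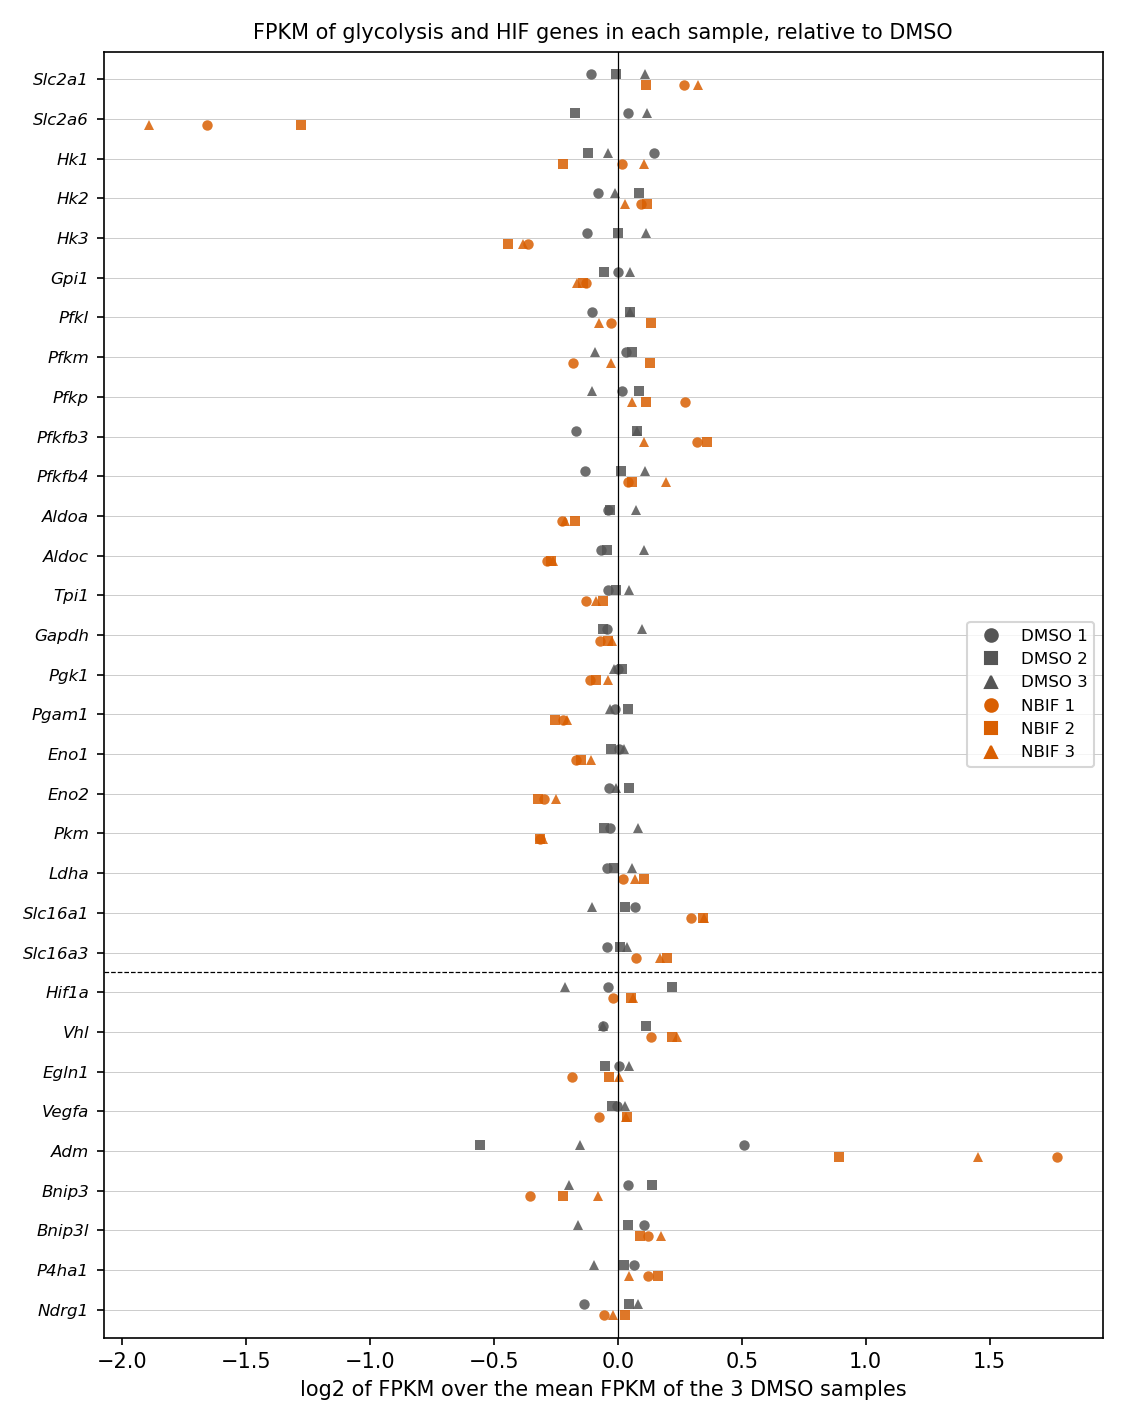
Each sample's FPKM over the mean of the 3 DMSO samples, on a log2 scale without a pseudocount, for the 32 tested genes; grey is DMSO, orange is NBIF, and the symbol gives the replicate. Slc2a6 and Adm lie farthest from 0, and for Hif1a, Vegfa and Ndrg1 the NBIF samples lie within or close to the DMSO range.

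The genes that sense oxygen showed no change that passed the limma test, though Vhl had an unadjusted p under 0.05. Hif1a had 23.7, 28.4 and 21.0 FPKM in DMSO and 24.0, 25.3 and 25.4 in NBIF. The NBIF samples fell inside the DMSO range, and the log2 change was 0.04 ± 0.10 (SE; adjusted p = 0.809 in limma; 95% interval -0.18 to 0.26). HIF1A is controlled mainly through the stability of the protein, which RNA does not measure. Vhl, the ubiquitin ligase subunit that recognises hydroxylated HIF1A, had 7.19, 8.11 and 7.19 FPKM in DMSO and 8.23, 8.71 and 8.86 in NBIF. Its groups did not overlap, but the log2 change of 0.18 ± 0.07 did not pass (limma adjusted p = 0.111). The prolyl hydroxylase gene Egln1 ranged from 11.6 to 12.5 FPKM in DMSO and from 10.6 to 12.1 in NBIF. Egln3, a hydroxylase gene that HIF induces in many cells, was below the filter, listed at 0 in 4 samples and at 0.0186 in DMSO 3 and 0.0399 in NBIF 1.

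Among the HIF targets outside glycolysis, Adm was the gene called, with a limit set by its low level. Adm encodes adrenomedullin, a vasodilating peptide. It had 0.792, 0.379 and 0.500 FPKM in DMSO and 1.90, 1.03 and 1.53 FPKM in NBIF. All NBIF values exceeded the DMSO values, and the log2 change of (FPKM + 1) was 0.67 ± 0.15 (SE; adjusted p = 0.0166 in limma). The gene was low and met the minimum mean of 1 FPKM only through its NBIF values, so that it had to differ to be tested. A pseudocount of 0.1 gave a log2 change of 1.28 and a pseudocount of 5 gave 0.22, with the call kept at both, and the call was lost without NBIF 1 (adjusted p = 0.0569) and without NBIF 3 (0.0535). It lies on chromosome 7 at 110627661 to 110629820 (GRCm38).

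The growth factor gene Vegfa, a standard HIF readout, had 71.5, 70.4 and 73.0 FPKM in DMSO and 67.9, 73.5 and 73.3 in NBIF. The group means were both 71.6 FPKM, with a 95% interval of the log2 change of -0.11 to 0.11. Bnip3, a mitophagy receptor gene induced by HIF, had 22.5, 24.0 and 19.0 FPKM in DMSO and 17.1, 18.7 and 20.6 in NBIF. NBIF 3 lay inside the DMSO range, and the log2 change was -0.20 ± 0.10 (SE; adjusted p = 0.179 in limma), which passed without DMSO 3 (-0.29, adjusted p = 0.0479). Its relative Bnip3l ranged from 76.1 to 91.6 FPKM in DMSO and from 90.5 to 96.1 in NBIF, with a log2 change of 0.13. Bnip3 made up 20.4 ± 0.982% of the summed FPKM of the pair in DMSO and 16.8 ± 1.09% in NBIF, and the groups did not overlap. P4ha1, a subunit of the collagen prolyl hydroxylase, ranged from 40.6 to 45.4 and from 44.8 to 48.5 FPKM, and the stress gene Ndrg1 from 50.8 to 59.0 and from 53.7 to 56.9 FPKM. Both overlapped, with log2 changes of 0.11 and -0.01; that of Ndrg1 was 0.0033 after rescaling to the same sum.

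**Figure D5:**
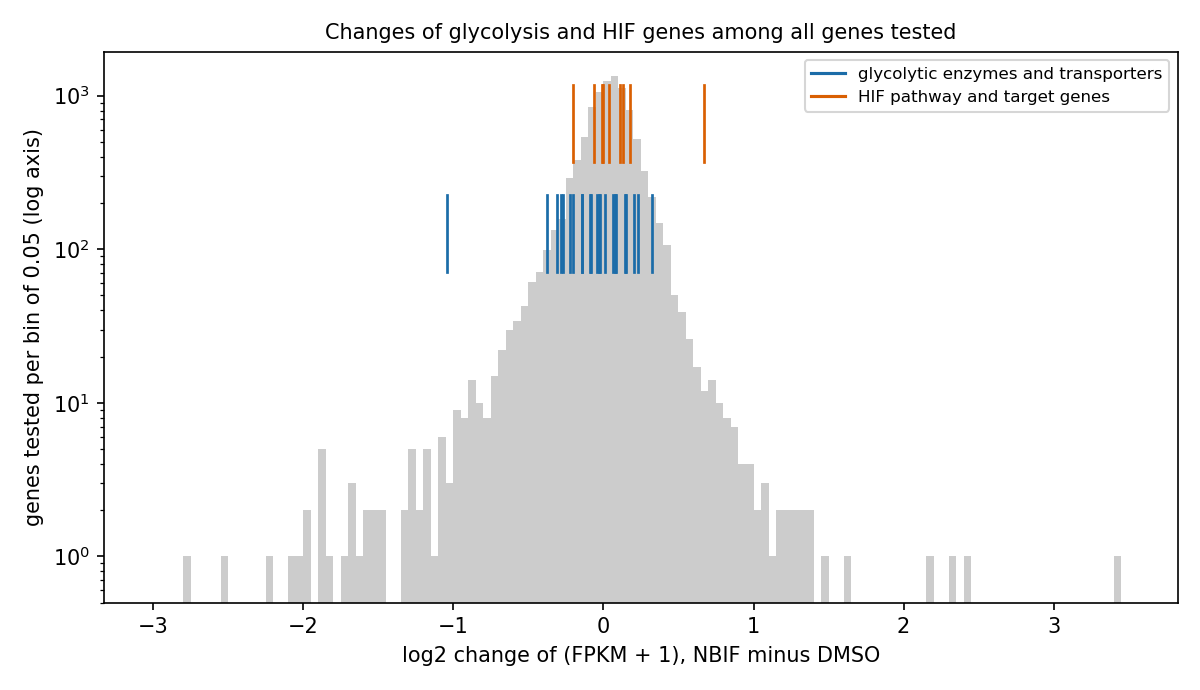
Histogram of the log2 changes of all 9936 genes tested (grey, counts on a log axis) with marks at the changes of the glycolytic genes (blue) and HIF genes (orange). Apart from Slc2a6 at -1.04 and Adm at 0.67, the marks lie between -0.37 and 0.32.

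Further lists of the same pathways were read beside these genes. Over all genes tested, 10.5% rose and 8.08% fell by the same test. Of 13 tested genes of glycolysis that are not among the 33, 5 rose (38.5%), 1 fell (7.69%) and 7 did not pass. The number that rose was 1 without NBIF 1, 2 without DMSO 2 or NBIF 2, and 3 without DMSO 1 or NBIF 3. Pfkfb2, a relative of Pfkfb3, had 78.0 ± 6.47 FPKM in DMSO and 97.4 ± 2.64 in NBIF and rose by 0.32 ± 0.06 on the log2 scale (SE; adjusted p = 0.0102 in limma), and at that level it was the most abundant PFKFB gene. Tigar, which encodes a phosphatase that lowers the activator of phosphofructokinase, rose from 17.7 ± 0.573 to 21.3 ± 0.319 FPKM (log2 change 0.25, limma adjusted p = 0.0119; 0.0532 without NBIF 1). Of the 8 tested genes of the pentose phosphate branch, which makes NADPH from glucose, 2 rose (25%), 0 fell and 6 did not pass. The transaldolase gene Taldo1 was no longer called when any sample but DMSO 3 was left out (adjusted p up to 0.140), which left 1. G6pdx, its first enzyme, had 30.8 ± 2.47 FPKM in DMSO and 39.6 ± 2.07 in NBIF and rose by 0.36 ± 0.07 on the log2 scale (SE; adjusted p = 0.00957 in limma).

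Of 14 tested genes that carry pyruvate into the mitochondrion and act on it there, 2 rose (14.3%), 2 fell (14.3%) and 10 did not pass. Below 0 were 11 of the 14 log2 changes, with a median of -0.09. None was called without DMSO 2 or without NBIF 1; without DMSO 1, NBIF 2 and NBIF 3 the numbers that rose were 1, 1 and 0 and those that fell 1, 0 and 1. The 2 subunits of the mitochondrial pyruvate carrier differed in sign: Mpc1 rose by 0.23 on the log2 scale and Mpc2 fell by 0.34. The call of Mpc1 was lost without DMSO 2 (adjusted p = 0.0595), NBIF 1 (0.0878) and NBIF 3 (0.0865), after median-ratio scaling (0.0515) and after quantile normalization (0.0551). That of Mpc2 was lost without DMSO 1 (0.0551), DMSO 2 (0.0545), NBIF 1 (0.0586) and NBIF 2 (0.0627). Of 12 tested glycogen genes 3 rose (25%), 1 fell (8.33%) and 8 did not pass. The number that rose was 1 without DMSO 2, NBIF 2 or NBIF 3 and 2 without each of the other samples, as Pygb, Phkg2 or both were lost. The phosphorylase kinase subunit gene Phka1 rose by 0.34 and Phka2 fell by 0.29 on the log2 scale.

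Of 26 tested HIF targets that are not among the 33, 4 rose (15.4%), 2 fell (7.69%) and 20 did not pass, with a median log2 change of 0.02. The shares over all genes tested were 10.5% and 8.08%. Cited2 fell from 403 ± 24.1 to 320 ± 5.49 FPKM (log2 change -0.33, limma adjusted p = 0.00331). Ankrd37 fell from 1.43 ± 0.101 to 0.953 ± 0.180 FPKM (limma adjusted p = 0.0467), but it met the filter only through its DMSO samples. The number that fell was 1 when any sample other than NBIF 2 was left out. The carbonic anhydrase gene Car12 rose from 1.43 ± 0.360 to 3.78 ± 0.425 FPKM (log2 change 0.98 ± 0.12 SE; limma adjusted p = 0.00105). Dusp1, a phosphatase that shuts off MAP kinases, ranged over 6.26 to 8.23 FPKM in DMSO and 13.4 to 15.7 in NBIF and rose (log2 change 0.94 ± 0.10 SE; limma adjusted p = 0.000541). Angptl4, an inhibitor of lipoprotein lipase, rose by 0.53, and Ero1l, an oxidase of the endoplasmic reticulum, by 0.34, with the call of Ero1l lost without NBIF 2 (adjusted p = 0.0553). Several of these genes also answer to other signals. Of 15 tested genes of the HIF machinery (partners, hydroxylases and ligase subunits) 0 passed the limma test, with 1 at an unadjusted p under 0.05 (Rack1, which passed after quantile normalization, adjusted p = 0.0293, and without DMSO 3, adjusted p = 0.0211). Of 13 tested regulators of glucose sensing, such as Myc (9.53 ± 2.22 and 12.2 ± 1.70 FPKM), 0 passed the limma test, with 0 at an unadjusted p under 0.05. Over all 9936 genes tested, 18.6% passed and 3308 had an unadjusted p under 0.05. The replicate block fit alone called Myc (adjusted p = 0.0229).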

How the data were processed

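The authors deposited FPKM values for 6 samples, with genes given by symbol. HISAT2 and featureCounts are among the tools in the submitters' processing notes, which give no roles; those notes also name the human build GRCh38, while 97.9% of the symbols are mouse gene names; the build, gene lengths and strand setting behind the values are uncertain. Several abundant glycolytic genes have pseudogene or retrogene copies, so their values depend on how shared reads were counted.

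Groups follow the treatment label. The 9936 genes whose mean FPKM reached 1, among them 32 of the 33 described, entered a two-sided limma fit (version 3.58.1, R 4.3.3, trended prior) of log2(FPKM + 1). A gene passed when its Benjamini-Hochberg adjusted p, taken over all 9936, was under 0.05. The pseudocount of 1 understates how far low genes differ. The procedure was tested on simulated data. All 33 genes are named, and of the other lists up to 4 passing genes with the largest change, some given only in counts. The HIF targets that fell are named as well. The genes, lists and markers were chosen with earlier results of these data known. Loci are from GENCODE M21 (GRCm38) and promoters from RefSeq (GRCm38.p6), joined through the symbol; which annotation the authors used is not stated. Alternatives were other pseudocounts, filters, scalings and variance priors, a replicate block, and each sample left out.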

Additional observations from a re-analysis of the deposited data

How the results depend on the processing

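Of the 11 genes called among the 33, 6 kept their call under each of the 16 alternatives that tested them, and of the 21 not called 19 stayed so under all; Slc2a1 and Bnip3 passed under at least 1. With genes filtered at a mean of 5 FPKM, Adm and Slc2a6 were not tested and the HIF genes called higher were 0. After rescaling to the same sum the glycolytic genes called higher were 2, and after median-ratio scaling 692 genes in all were called higher. Leaving out each sample in turn gave 493 to 1066 genes called higher and 506 to 825 lower over all genes, 1 to 2 glycolytic genes higher and 5 to 9 lower, and 0 to 1 HIF genes higher and 0 to 1 lower. Log2 changes that changed sign, none of them called, were 0.014 for Vegfa and 0.0033 for Ndrg1 after rescaling to the same sum, -0.030 for Pfkl and -0.0011 for Hif1a after median-ratio scaling, and -0.014 for Pfkl, 0.033 for Gapdh, 0.078 for Pgk1 and 0.0026 for Vegfa after quantile normalization. Over the fits that leave out a sample, the log2 change ranged from -0.095 to 0.064 for Hk1, -0.049 to 0.055 for Pfkl, -0.100 to 0.051 for Pfkm, -0.072 to 0.0060 for Gapdh, -0.058 to 0.151 for Hif1a, -0.021 to 0.035 for Vegfa and -0.078 to 0.028 for Ndrg1. The cause was not tested. Samples of different groups that share a replicate number correlated in their deviations at 0.0784, 0.126 and 0.0355. DMSO 1 and DMSO 2 correlated best with the NBIF sample of their own number, and DMSO 3 with NBIF 1 (0.0974). Pairs with different numbers lay between -0.177 and 0.0974. Values this small cannot tell whether samples with the same number were paired, and pairing is not stated. With the replicate block, 892 genes were called higher and 740 lower, 7 glycolytic genes lower and 1 higher, and the calls of Gpi1 (adjusted p = 0.0900) and Eno1 (0.0624) were lost. The read depth is unknown, which limits what can be said of low genes such as Adm, Egln3 and Slc2a6.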
